A study of Mus musculus with 13 samples.

Results

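Basement membranes are thin sheets of matrix on which many cells rest. Their main parts are laminins, each a trimer of an alpha, a beta and a gamma chain, and a network of collagen IV, and nidogens link the laminin and collagen networks. Integrins are pairs of an alpha and a beta chain in the cell membrane that bind these and other matrix proteins and connect them to the actin cytoskeleton. In the mouse embryo the endoderm layers around the epiblast are known for secreting laminin and collagen IV, and fibroblasts for binding fibronectin and fibrillar collagen through integrins.

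The genes described here are the 34 of 15176 genes in the deposited expression table whose symbol begins with Lama, Lamb, Lamc, Col4a, Nid, Itga or Itgb followed by a number, leaving out 4 symbols that contain bp. They comprised 5 laminin alpha, 3 laminin beta and 3 laminin gamma chains, 4 collagen IV chains, 2 nidogens, 11 integrin alpha chains and 6 integrin beta chains. Integrin chains named with a letter only, such as Itgav, are not among them.

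RNA sequencing of total RNA covered 13 libraries along a conversion of fibroblasts by small molecules. Mouse embryonic fibroblasts (MEF, 3 libraries) of strain C57xICR had no treatment. From fibroblasts of that strain under the mixture coded VC6TF came the Oct4-GFP-negative cells (2 libraries), and from VC6TF+Z the Oct4-GFP-positive clusters and colonies (1 library each). Oct4-GFP is a reporter of Pou5f1 activity, and negative cells, clusters and colonies were picked for RNA, so each holds whatever cells were picked with it. Embryonic stem cells (ESC, 4 libraries) were of line R1, strain 129, untreated, and the chemically induced pluripotent lines 6 and 11 (CiPSC, 2 libraries, C57xICR) were labelled VC6TFMB+Z. ESC and CiPSC were kept on feeder layers of mitomycin C-treated MEF. The labels do not say that replicates came from separate cultures, so p-values measure the spread between these libraries, which may be technical. In bulk RNA, fewer cells of a type and less RNA per cell cannot be told apart.

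Values are RPKM, the reads of a gene divided by its length in kilobases and by the library size. In 10 libraries the length behaved as the gene span with introns, at an estimated depth of 8.90 M to 17.72 M reads. Exonic length applied to ESC replicate 4 and both CiPSC lines, and these 3 libraries are compared only with one another, and "ESC" below means replicates 1, 2 and 3. MEF replicate 3 stood apart from the other MEF, with a summed level of 6 fibroblast markers of 2600 RPKM against 723 and 632, and of 4 macrophage and blood markers of 188 against 18.1 and 29.3. The fibroblast sum rested on Col1a1 (1820 against 338 and 292), Col1a2 and Col3a1. Thy1 was lower (56.8 against 186 and 163), Twist1 was 34.4 against 33.4 and 19.5, and Pdgfrb was 8.23 against 10.4 and 8.1. MEF replicate 3, the colonies and ESC replicate 3 also differ from the other 7 gene-span libraries in holding 0.001 where those hold 0. The clusters, labelled Oct4-GFP-positive, had 0.260 RPKM of Pou5f1, between the 0.191 and 0.429 of the GFP-negative libraries. The colonies had 124 RPKM of Pou5f1, within the 86.1 to 152 of ESC, but 0.0418 of Nanog against 51.7 to 55.4 in ESC.

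The sequences just upstream of 3 genes with different patterns are shown, because Lamb1 was highest in the colonies, Nid1 in the GFP-negative cells and Itgb1 in MEF. RefSeq promoter windows (GRCm38.p6, plus strand, 5′ to 3′) were found for 22 of the 34 genes, and the part before the annotated gene start is printed, with GC boxes (GGGCGG or its reverse complement CCGCCC) in capitals.
Lamb1, chr12:31265043-31265233: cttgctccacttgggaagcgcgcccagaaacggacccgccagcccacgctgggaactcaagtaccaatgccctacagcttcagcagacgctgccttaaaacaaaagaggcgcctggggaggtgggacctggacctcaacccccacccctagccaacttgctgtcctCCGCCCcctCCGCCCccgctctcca
Nid1, chr13:13437352-13437550: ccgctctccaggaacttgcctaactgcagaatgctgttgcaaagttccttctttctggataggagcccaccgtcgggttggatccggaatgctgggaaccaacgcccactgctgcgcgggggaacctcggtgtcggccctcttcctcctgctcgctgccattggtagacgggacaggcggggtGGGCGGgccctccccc
Itgb1, chr8:128685404-128685653: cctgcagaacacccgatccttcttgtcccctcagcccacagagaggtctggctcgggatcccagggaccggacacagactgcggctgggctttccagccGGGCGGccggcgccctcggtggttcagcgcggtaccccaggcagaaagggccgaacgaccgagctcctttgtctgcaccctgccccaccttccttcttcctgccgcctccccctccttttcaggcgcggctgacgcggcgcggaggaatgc
The Lamb1 stretch holds 2 GC boxes, and those of Nid1 and Itgb1 hold 1 each. Of all 32851 promoter windows trimmed to the same length, 23.1%, 24.4% and 32.7% hold at least 1. TATAAA was found on neither strand of the 3 stretches, and only 8.8%, 9.1% and 12.4% of the trimmed windows hold it. CCAAT or its reverse complement ATTGG was found 1 time each in Lamb1 and Nid1 and 0 times in Itgb1, beside 26.9%, 28.2% and 33.8% of windows. The match is a description of the letters and shows no binding.

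Among the laminin alpha chains, which carry the main sites for cell receptors, Lama1 was highest in the colonies, Lama2 in MEF and Lama5 in ESC replicates 2 and 3. Lama1, the alpha chain typical of early embryonic basement membranes (chromosome 17, 67697259 to 67822647, plus strand, GRCm38), was 41.3 RPKM in the colonies. In MEF it was 0.0161, 0.0296 and 0.133, in ESC 0.0066, 0.0092 and 0.235, and in the clusters 0.0009. In the GFP-negative cells it was 0.0054 in replicate 2 and listed at 0 in replicate 1, where 3 reads would be 0.00217 RPKM. The colonies thus stood far above every other gene-span library, at 176 times ESC replicate 3, the next highest. The colonies' value rests on an estimated 52027.5 reads and that of ESC replicate 3 on 294.4, with exact 95% Poisson bounds of 51580.9 to 52476.0 and 261.4 to 329.6 that cover counting error only.

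Lama4, a chain of mesenchymal and vessel basement membranes, was 1.52, 1.53 and 2.18 RPKM in MEF and 0.0369, 0.0091 and 0.0441 in ESC. All 3 MEF lay above all 3 ESC, and Lama4 fell in ESC by 1.41 ± 0.13 on the log2(RPKM + 1) scale (SE, limma adjusted p = 0.000153). The GFP-negative cells had 0.780 and 0.418, below every MEF and above every ESC, with a log2 change against MEF of −0.78 ± 0.14 (limma adjusted p = 0.0116) that missed the required size of 1. The clusters, at 1.67, were within the MEF range. Only MEF and the clusters reach 1 RPKM of Lama4, so its fall from MEF follows from the filter. The p-values give no separate support.

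Lama5, the most widely expressed alpha chain of adult epithelia, went the other way. It was 0.0733, 0.180 and 0.746 RPKM in MEF and 1.05, 4.53 and 6.04 in ESC. The ESC all lay above the MEF, and Lama5 rose by 1.73 ± 0.43 on the log2 scale (limma adjusted p = 0.0207). This call was lost when any of ESC replicates 2 and 3 or MEF replicates 1 and 2 was left out (adjusted p = 0.0564 to 0.0724) and among the 7 libraries with exact zeros (1.58, limma adjusted p = 0.0974). The GFP-negative cells, at 1.66 and 1.37, and the clusters, at 1.3, lay between the lowest ESC and the other ESC, and the colonies, at 0.714, lay inside the MEF range.

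The other 2 alpha chains were scarce. Lama2, the muscle and nerve chain, reached 0.0973 to 0.138 RPKM in MEF and at most 0.0157 elsewhere among the gene-span libraries. Lama3, a chain of epithelial laminin, was at most 0.0317 except in ESC replicate 3, at 0.196, and stood at the 0.001 placeholder in the colonies. ESC replicate 3 was thus above ESC replicates 1 and 2 for both Lama1 and Lama3.

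**Figure D1:**
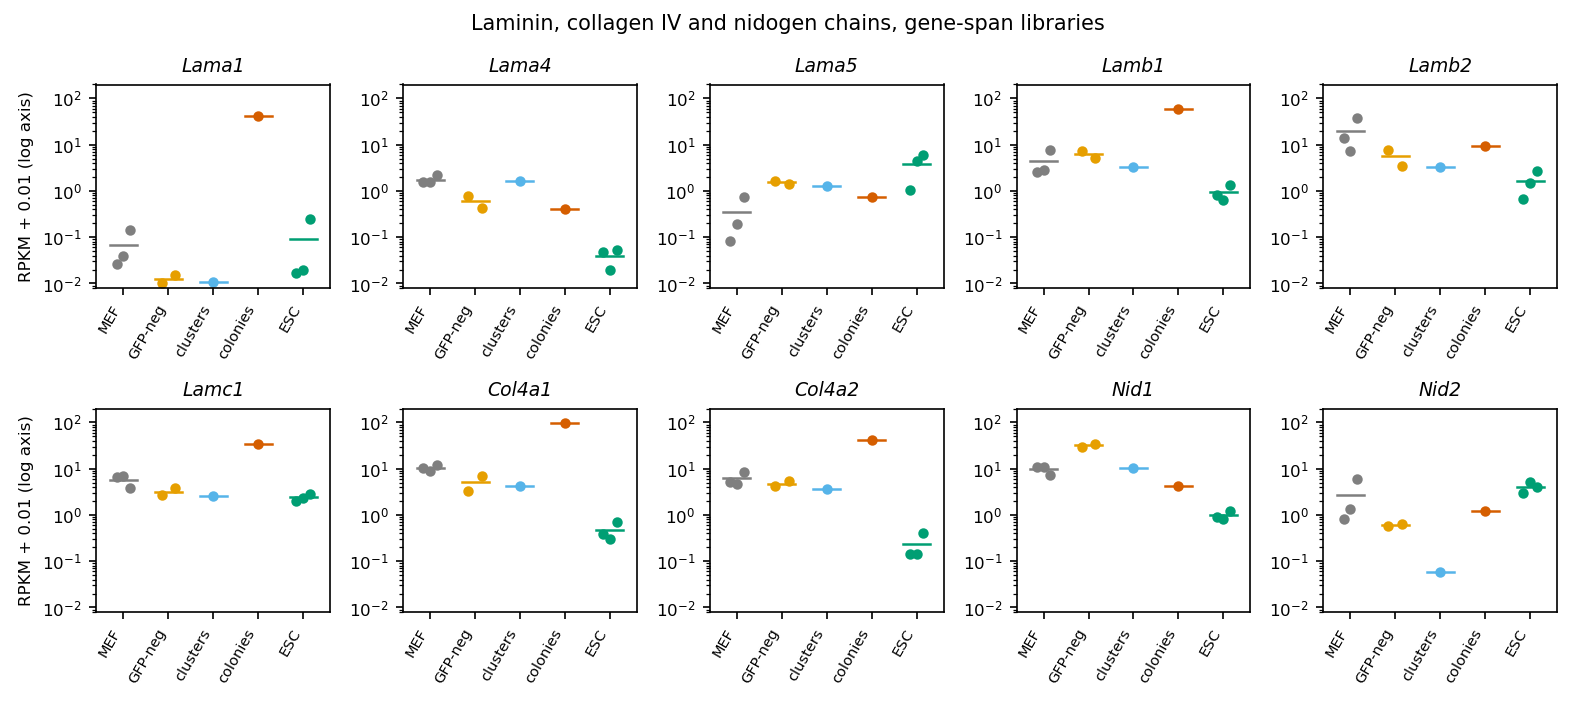
Levels of 10 laminin, collagen IV and nidogen chains in the 10 gene-span libraries, as RPKM plus 0.01 on a log axis. Points are libraries and short lines are group means. Lama1, Lamb1, Lamc1, Col4a1 and Col4a2 are highest in the colonies, Nid1 in the GFP-negative cells and Lama5 in ESC replicates 2 and 3.

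To set the chains of 1 library side by side, values were converted to exonic kilobases. On that scale Lama4 made up 73.4 to 80.4% of the summed alpha chain level in MEF, with 10.7 to 21.6% from Lama2. The GFP-negative libraries divided between Lama4 (56.4% and 45.2%) and Lama5 (43.4% and 53.7%), and the clusters had 76.5% Lama4 and 21.6% Lama5. In ESC Lama5 made up 75.6 to 97.4%, and in the colonies Lama1 made up 98.5%. On the deposited gene-span values the share of Lama5 was 68.0% and 76.3% in the GFP-negative libraries, so the order of Lama4 and Lama5 there depends on the gene length used in replicate 1. These shares are descriptions with no test.

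**Figure D2:**
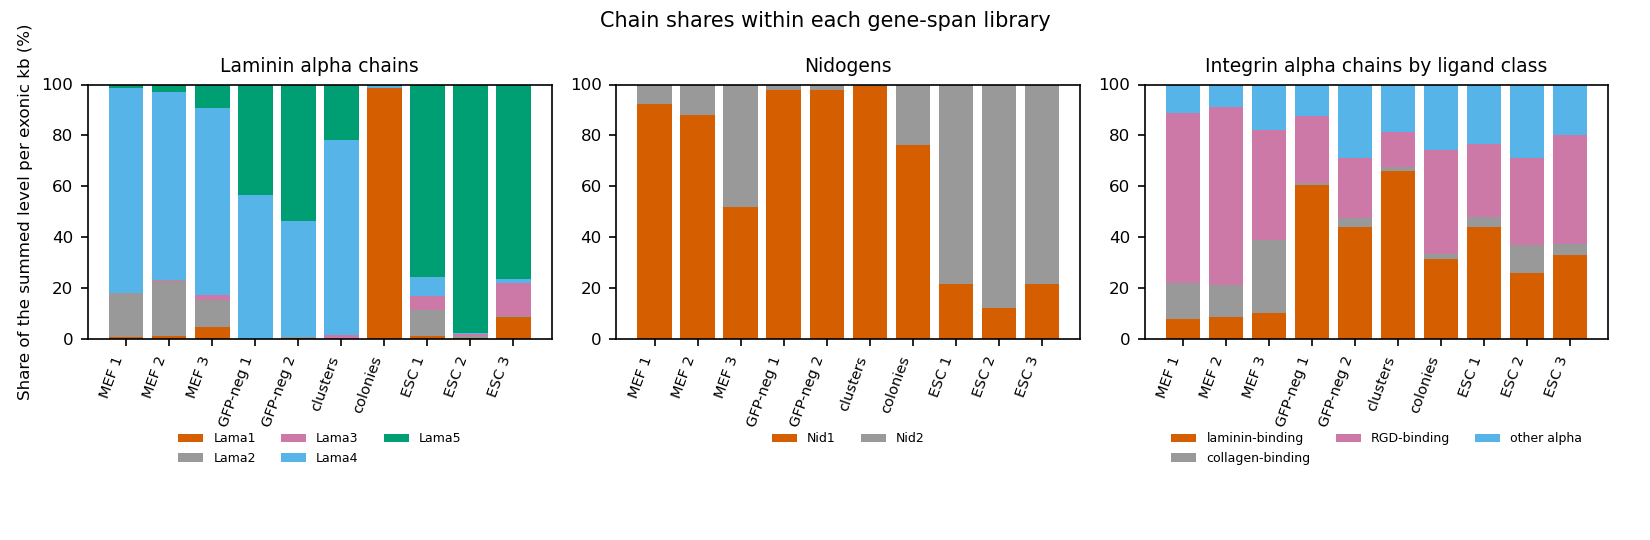
Share of each chain in the summed level of its family within each gene-span library, in percent of values per exonic kilobase. Bars are libraries. Lama1 takes 98.5% of the alpha chains in the colonies, Nid2 takes 78.4 to 87.7% of the nidogens in ESC, and laminin-binding integrin alpha chains take 7.89 to 10.3% in MEF.

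Of the beta chains, Lamb1, the common partner in early embryonic laminins (chromosome 12, 31265234 to 31329644, plus strand, GRCm38; upstream stretch above), was 58.3 RPKM in the colonies. It was 2.58, 2.79 and 7.66 in MEF, 7.25 and 5.10 in the GFP-negative cells, 3.25 in the clusters and 0.823, 0.631 and 1.36 in ESC. Every ESC lay below every other gene-span library. Lamb1 fell in ESC against the GFP-negative cells by 1.89 ± 0.40 on the log2 scale (limma adjusted p = 0.00845). Against MEF it fell by 1.36 ± 0.36 (limma adjusted p = 0.0264). That second call was lost without ESC replicate 1 or 2 (limma adjusted p = 0.0761 and 0.0831), among the libraries with exact zeros (0.0669), and by size without MEF replicate 3, where the log2 change was −0.95.

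Lamb2, the beta chain of muscle, kidney and nerve basement membranes, was 14.0, 7.12 and 38.0 RPKM in MEF and 0.648, 1.48 and 2.72 in ESC. The groups did not overlap, and Lamb2 fell in ESC by 2.76 ± 0.57 on the log2 scale (limma adjusted p = 0.00904). In the colonies it was 9.59, inside the MEF range, and in the GFP-negative cells 7.68 and 3.54, of which the first overlapped the MEF. Lamb3 did not exceed 0.0545 in any gene-span library. Per exonic kilobase Lamb1 made up 95.7% of the beta chains in the colonies, 40.2 to 58.5% in MEF and 57.8 to 82.3% in ESC. On the deposited gene-span values it made up 85.9% in the colonies, 15.5 to 28.1% in MEF and 29.7 to 55.9% in ESC, so whether Lamb1 or Lamb2 led in ESC replicates 2 and 3, MEF replicate 2, GFP-negative replicate 1 and the clusters depends on the gene length used.

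Lamc1, the gamma chain of most laminins, was 33.7 RPKM in the colonies. It was 6.67, 6.88 and 3.84 in MEF, 2.63 and 3.74 in the GFP-negative cells, 2.50 in the clusters and 1.98, 2.33 and 2.90 in ESC. All MEF lay above all ESC, but the log2 change of −0.97 ± 0.27 (limma adjusted p = 0.0301) stopped short of the size of 1. It passed with median-ratio scaling (−1.06, limma adjusted p = 0.0243), without MEF replicate 3 (−1.2, 0.0111) and among the libraries with exact zeros (−1.3, 0.0406). Lamc1 supplied 88.5 to 99.7% of the gamma chain level per exonic kilobase in every gene-span library. The summed alpha chains came to 1.17 times the summed gamma chains in the colonies and to 0.200 to 0.764 times in the other 9 gene-span libraries.

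Collagen IV was highest in the colonies and lowest in ESC. Col4a1 and Col4a2 encode the chains of the common collagen IV trimer and lie head to head on chromosome 8 (GRCm38, 11198423 to 11312826 on the minus strand and 11312805 to 11449287 on the plus strand). Their annotated ends share 22 bases, and since strand handling is not given, reads in that overlap could belong to either gene. Col4a1 was 95.5 RPKM in the colonies, 10.1, 8.83 and 12.1 in MEF, 3.28 and 7.03 in the GFP-negative cells, 4.13 in the clusters and 0.377, 0.289 and 0.698 in ESC. Col4a2 was 42.5 in the colonies, 5.24, 4.74 and 8.58 in MEF, 4.14 and 5.36 in the GFP-negative cells, 3.59 in the clusters and 0.134, 0.134 and 0.407 in ESC. For both genes the colonies were the highest gene-span library and the ESC the lowest 3.

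Both chains fell in ESC. The log2 change against MEF was −2.96 ± 0.28 for Col4a1 (limma adjusted p = 0.000204) and −2.52 ± 0.24 for Col4a2 (limma adjusted p = 0.000249). Among the libraries with exact zeros alone these were −2.97 and −2.40 (limma adjusted p = 0.00945 and 0.00700). Against the GFP-negative cells they were −2.02 ± 0.31 and −2.23 ± 0.27 (limma adjusted p = 0.00202 and 0.000679). Neither gene was called between GFP-negative cells and MEF, at −0.94 ± 0.31 and −0.29 ± 0.27 (0.0973 and 0.544 by limma after adjustment), though Col4a1 was called without GFP-negative replicate 2 (−1.40, limma adjusted p = 0.0175). Col4a5 and Col4a6, neighbours on the X chromosome that form other trimers, were at 0.202 to 0.273 and 0.0489 to 0.0907 RPKM in MEF and at most 0.0084 in the clusters and colonies.

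The nidogens changed places. Nid1 (chromosome 13, 13437551 to 13512269, plus strand, GRCm38; upstream stretch above) was 30.0 and 34.0 RPKM in the GFP-negative cells, above every other gene-span library. It was 10.9, 11.0 and 7.13 in MEF, 10.4 in the clusters, 4.22 in the colonies and 0.903, 0.800 and 1.21 in ESC, the lowest 3. It rose in GFP-negative cells against MEF by 1.65 ± 0.27 on the log2 scale (limma adjusted p = 0.00749). With exact-zero libraries alone the change was 1.46 (limma adjusted p = 0.0510). It fell in ESC against MEF by 2.42 ± 0.24 (limma adjusted p = 0.00028). The log2 change in ESC against GFP-negative cells was −4.07 ± 0.27 (limma adjusted p = 3.63e-05).

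Nid2 was 3.01, 5.25 and 4.06 RPKM in ESC, 0.823, 1.36 and 6.03 in MEF, 0.579 and 0.630 in the GFP-negative cells, 1.2 in the colonies and 0.0482 in the clusters. ESC overlapped MEF only through MEF replicate 3, and the log2 change of 0.69 ± 0.46 (limma adjusted p = 0.313) became 1.28 (limma adjusted p = 0.0108) without that library. Against the GFP-negative cells, all of which lay below all ESC, Nid2 was called higher by 1.65 ± 0.51 (limma adjusted p = 0.0400), but each of the 5 leave-one-out fits lost that call (adjusted p = 0.0572 to 0.125). Per exonic kilobase Nid1 made up 52.1 to 92.4% of nidogen in MEF, 97.9% and 98.0% in the GFP-negative cells, 99.5% in the clusters and 76.3% in the colonies, against 12.3 to 21.6% in ESC.

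Among the integrin alpha chains, the fibronectin-binding chain Itga5 (chromosome 15, 103344286 to 103366763, minus strand, GRCm38) was 12.6, 12 and 9.59 RPKM in MEF, 3.26 and 2.27 in the GFP-negative cells, 1.3 in the clusters, 7.25 in the colonies and 1.62, 2.36 and 5.56 in ESC. MEF were the highest 3 libraries. Itga5 fell in ESC against MEF by 1.67 ± 0.34 on the log2 scale (limma adjusted p = 0.00893) and in the GFP-negative cells against MEF by 1.72 ± 0.38 (limma adjusted p = 0.0266). The second call was lost without either GFP-negative library and without MEF replicate 1 or 2 (limma adjusted p = 0.0623 to 0.0753), and held at −1.83 (limma adjusted p = 0.0416) among the libraries with exact zeros.

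Itga7, the laminin-binding chain known from muscle, was 3.35 RPKM in the clusters. It was 1.39, 0.870 and 1.71 in MEF, 0.915 and 0.878 in the GFP-negative cells, 0.187 in the colonies and 0.0092, 0.0540 and 0.110 in ESC. It fell in ESC against MEF by 1.12 ± 0.14 on the log2 scale (limma adjusted p = 0.000810). Without MEF replicate 3 the change was just under the size of 1, and the call was lost. Only MEF replicates 1 and 3 and the clusters reach 1 RPKM of Itga7, so its fall from MEF follows from the filter. The p-value gives no separate support. Itga3, another laminin-binding chain, was 2.68 in the clusters and 3.16 in the colonies, against 0.13 to 0.518 in MEF, 0.173 and 1.24 in the GFP-negative cells and 0.314 to 1.11 in ESC. Of the 4 muscle markers, Des, a muscle intermediate filament, was 24.9 RPKM in the clusters and 0.263 to 2.36 in the other gene-span libraries. Myod1 and Actn2 were at 0 in the clusters, and Myog was 0.0882, below all 3 MEF. Their part in the result was not tested.

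Itga6, the laminin-binding chain of epithelial anchoring junctions, was 2.48 and 0.921 RPKM in the GFP-negative cells, against 0.268, 0.382 and 0.288 in MEF and 0.556 to 1.06 in ESC. Both GFP-negative libraries lay above every MEF, and only replicate 1 lay above the ESC. Its log2 change against MEF was 0.98 ± 0.26 (limma adjusted p = 0.0523), which did not pass, though it passed with median-ratio scaling (1.04, 0.0380) and without GFP-negative replicate 2 (1.41, 0.00642). Itgb4, its partner in those junctions, was 0.940 and 0.468 in the GFP-negative cells and 0.0075, 0 and 0.154 in MEF, with a log2 change of 0.68 ± 0.16 (limma adjusted p = 0.0301) that missed the size of 1. Keratinocyte markers stood beside these values: Krt5, Krt14 and Trp63 summed to 7.44 and 16.1 RPKM in the GFP-negative libraries, to 0.183, 0.351 and 5.01 in MEF and to 0.178 or less in the other 5 gene-span libraries, with Trp63 near 0 throughout. Their part in the result was not tested.

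Itga8 and Itga11 were higher in every MEF than in any other gene-span library. Itga11, a fibroblast receptor for fibrillar collagen, was 0.597, 0.476 and 1.23 RPKM in MEF and at most 0.0244 in the other gene-span libraries. Itga8, which binds nephronectin and related ligands, was 0.476, 0.636 and 0.120 in MEF and at most 0.0263 elsewhere. Neither gene passed the filter on low values. Both passed it per exonic kilobase only through MEF, where alone they reach 1, so their calls on that scale follow from the filter and are not given. Of the other collagen-binding chains, Itga10 was 0.178, 0.315 and 1.46 in MEF and at most 0.158 elsewhere, and Itga1 was 0.222 to 0.226 in MEF but 0.359 in ESC replicate 2. Itga1 was not called in ESC against MEF per exonic kilobase (−0.16 ± 0.38, limma adjusted p = 0.789). Itga10 reaches 1 on that scale only in MEF replicates 2 and 3, so it passed the filter only through MEF and its test is not given. The fibronectin and RGD class, Itga5 with Itga8 and Itga2b, made up 43.1 to 69.9% of alpha chain level per exonic kilobase in MEF, 26.1% and 23.3% in the GFP-negative cells, 13.9% in the clusters, 40.9% in the colonies and 28.8 to 42.5% in ESC. On deposited values ESC replicate 3, at 65.2%, was above MEF replicate 3, at 63.2%. In MEF the laminin-binding class, Itga3, Itga6 and Itga7, made up 7.89 to 10.3% per exonic kilobase. The laminin-binding share was 60.7% and 44.3% in the GFP-negative cells, 65.9% in the clusters, 31.4% in the colonies and 26.2 to 44.1% in ESC.

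**Figure D3:**
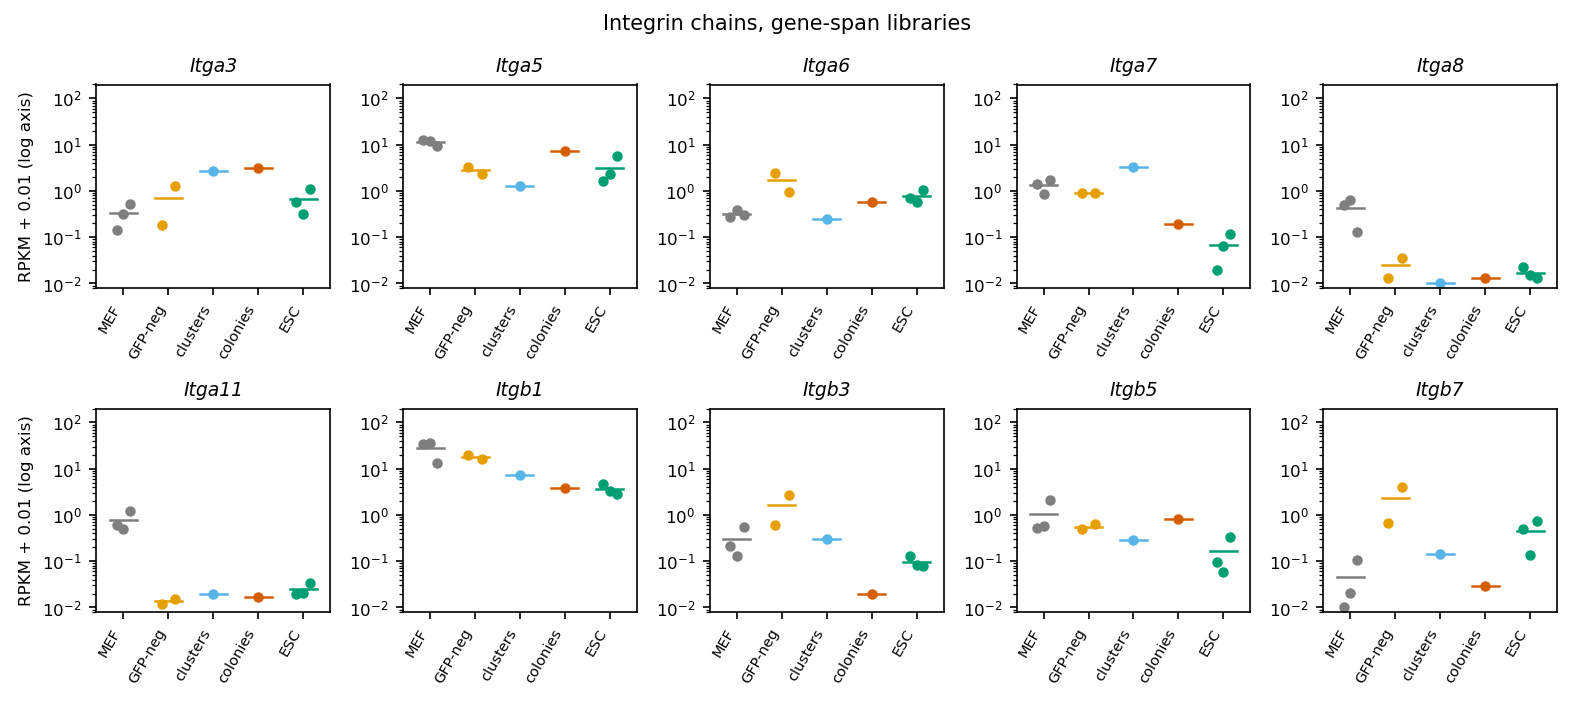
Levels of 10 integrin chains in the 10 gene-span libraries, as RPKM plus 0.01 on a log axis. Points are libraries and short lines are group means. Itga8 and Itga11 are high only in MEF among these libraries, and Itgb1 falls from 13.4 to 36.2 RPKM in MEF to 2.86 to 4.63 in ESC.

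Among the beta chains, Itgb1, the partner of most laminin and collagen receptors (chromosome 8, 128685654 to 128733200, plus strand, GRCm38; upstream stretch above), was 34.7, 36.2 and 13.4 RPKM in MEF and 20.1 and 16.4 in the GFP-negative cells. It was 7.18 in the clusters, 3.82 in the colonies and 4.63, 3.33 and 2.86 in ESC. The GFP-negative cells lay inside the MEF range and both groups lay above all ESC. Itgb1 fell in ESC against MEF by 2.55 ± 0.39 on the log2 scale (limma adjusted p = 0.00222) and against GFP-negative cells by 2.07 ± 0.43 (limma adjusted p = 0.00772). Per exonic kilobase it was 60.4 to 95.1% of all beta chain level in the gene-span libraries. The colonies, with the highest laminin and collagen IV, thus had Itgb1 within the ESC range.

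Itgb3, partner of the vitronectin receptor, was 0.589 and 2.63 RPKM in the GFP-negative cells, 0.123 to 0.538 in MEF, 0.0687 to 0.119 in ESC and 0.0096 in the colonies. Itgb5, another vitronectin receptor chain, was 0.514, 0.579 and 2.09 in MEF and 0.0868, 0.0477 and 0.331 in ESC, with a log2 change of −0.76 ± 0.27 (limma adjusted p = 0.0717). Per exonic kilobase the Itgb5 change was −2.58 ± 0.64 (limma adjusted p = 0.0133). Itgb7, a lymphocyte chain, was 0.646 and 3.93 in the GFP-negative cells and 0, 0.0106 and 0.0978 in MEF, with a log2 change of 1.46 ± 0.39 (limma adjusted p = 0.0524).

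Itgb2, the beta chain of leukocyte integrins, stood out in a single library. It was 2.19 RPKM in the clusters, from an estimated 692.6 reads (exact 95% Poisson bounds 642.4 to 746.6), listed at 0 in both GFP-negative libraries and in ESC replicates 1 and 2, and 0.0731 to 0.454 in MEF. Among its alpha partners in the clusters, Itgam was at 0 and Itgal at 0.00288. The macrophage and blood markers summed to 1.13 RPKM in the clusters, with Lyz2 at 0, Laptm5 at 0.00487, Cd68 at 0.405 and Csf1r at 0.726, against 0.270 and 1.55 in the GFP-negative libraries. Lyz2 and Laptm5 were at or near 0 in the library with the most Itgb2. Csf1r there was above MEF replicates 1 and 2 (0.517 and 0.610) and below MEF replicate 3 (4.69) and the colonies (0.839). Cd68 there was below every MEF (2.56, 5.86 and 71.7). The part of these markers in the result was not tested.

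ESC were compared with MEF as the end point with the start. A gene counts as called when the limma adjusted p is under 0.05 and the absolute log2 change is 1 or more. Of the 34 genes 20 passed the filter of 1 RPKM in at least 2 libraries, and 1 of these rose (Lama5) while 9 fell (Col4a1, Col4a2, Nid1, Lama4, Lamb1, Lamb2, Itga5, Itga7 and Itgb1). Of all 10647 genes tested 15.9% were called, 7.95% higher and 7.97% lower. The median log2 change was −0.87 over the 20 and 0.14 over all genes tested. Per exonic kilobase 30 of the 34 passed, with 1 higher and 17 lower, beside 26.4% of all genes called on that scale. Of those 17, Lama2, Itga8 and Itga11 reach 1 only in MEF, so that their fall follows from the filter. In the RPKM fit Lama4 and Itga7, both among the 9, reach 1 only in MEF and the clusters, as does Itgb2 per exonic kilobase. Col4a6, among the 17, reaches 1 per exonic kilobase only in MEF and GFP-negative replicate 2. Their falls follow from the filter in the same way.

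**Figure D4:**
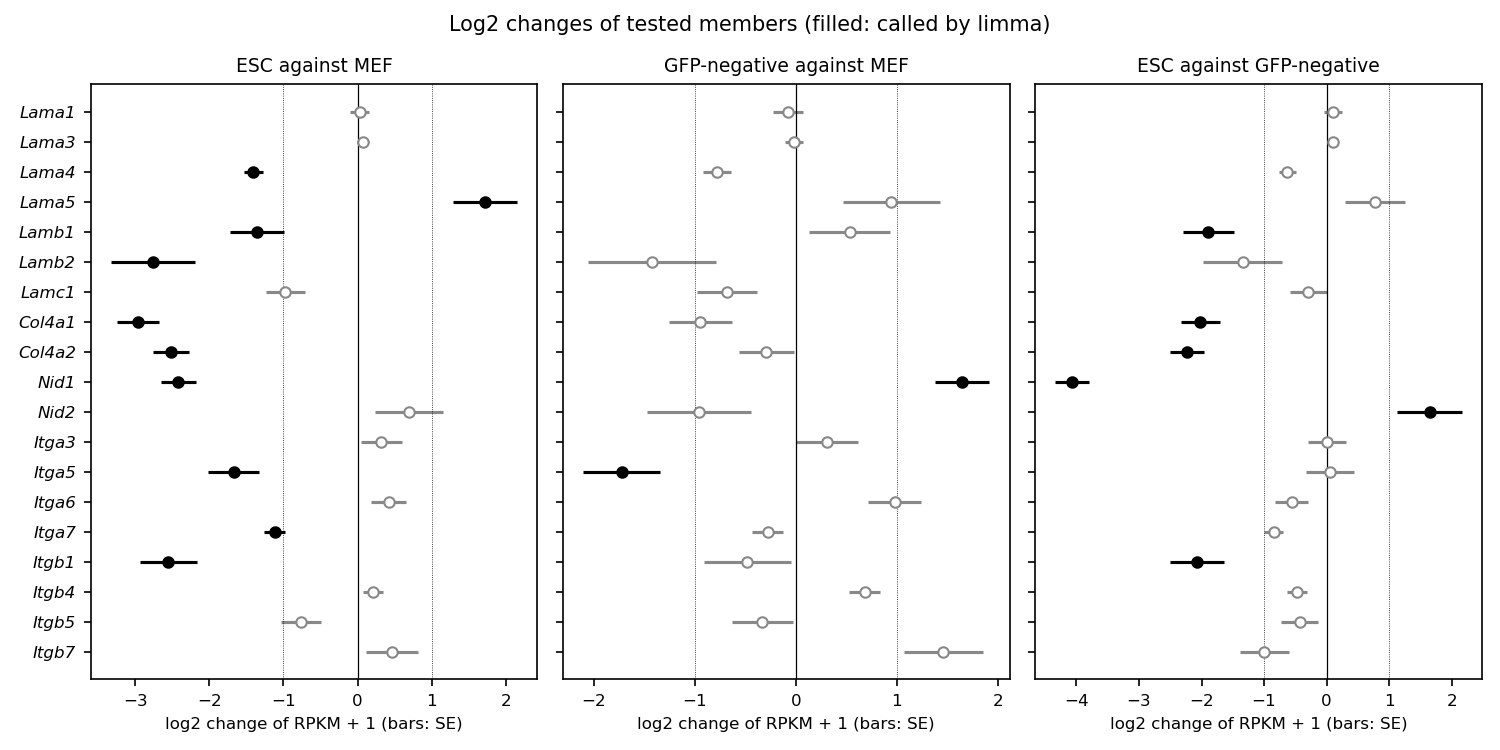
Log2 change of RPKM + 1 with its SE for 19 tested genes in ESC against MEF, GFP-negative cells against MEF and ESC against GFP-negative cells. Filled points were called by limma. Dotted lines mark a change of 1 either way. Nid1 lies at 1.65 in GFP-negative cells against MEF and at −4.07 in ESC against GFP-negative cells.

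GFP-negative cells against MEF describe what differed in treated cells that did not activate the reporter. Nid1 rose and Itga5 fell, 2 of the 20 genes beside 7.62% of all genes called (3.53% higher, 4.09% lower). The medians were −0.18 and −0.13. This count changed with the processing: with each library scaled by its median ratio 3 genes were higher, and with a pseudocount of 0.1 there were 4 higher and 2 lower. The share of all genes under these settings is not given, so these counts are not read as results about the members. Per exonic kilobase Itga6, Itgb4, Itgb7 and Nid1 were higher and Itga5, Itga8, Itga11, Itgb2, Lama2 and Lama4 lower, beside 13.3% of all genes. Of the lower genes, Lama2, Itga8 and Itga11 passed the filter only through MEF, and Itgb2 was listed at 0 in both GFP-negative libraries.

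ESC against GFP-negative cells called Nid2 higher and Col4a1, Col4a2, Itgb1, Lamb1 and Nid1 lower, 6 of 20 genes beside 22.7% of all genes (14.3% higher, 8.35% lower). The median log2 change was −0.52 over the 20 and 0.25 over all tested. This comparison shares the GFP-negative libraries with the previous one and the ESC libraries with the first.

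The clusters and colonies had 1 library each, so their differences have no replicate check and no test. Against the GFP-negative mean, the clusters were past a log2 difference of 1 for Itga3 (1.18) and Itga7 (1.2) on the higher side and Itga6 (−1.07), Itgb1 (−1.23), Itgb7 (−1.33) and Nid1 (−1.53) on the lower, 6 of 20 beside 24.6% of all genes. Without GFP-negative replicate 1, Itga3 (0.72) and Itga6 (−0.64) were no longer past 1 and Itgb7 was at −2.12. Without GFP-negative replicate 2, Itgb7 (−0.54) was no longer past 1.

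Against the clusters, the colonies were past 1 for 10 of 20 genes beside 39.9% of all genes (27.3% higher, 12.6% lower). The 8 higher were Lama1 (5.40), Col4a1 (4.23), Lamb1 (3.80), Lamc1 (3.31), Col4a2 (3.25), Itga5 (1.84), Lamb2 (1.29) and Nid2 (1.07), and the 2 lower were Itga7 (−1.87) and Nid1 (−1.12). Median-ratio scaling moved the median of all genes by −0.15, and the higher share of all genes past 1 from 68.4% to 54.5%. Scaled, 6 were higher and 4 lower, with Lamb2 at 0.87 and Nid2 at 0.92 no longer past 1. How many of all genes were past 1 after scaling is not given, so the scaled counts are not read as results about the members.

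Against the ESC mean, the colonies were past 1 for 11 of 20 genes beside 24.1% of all genes (14.9% higher, 9.24% lower). The 9 higher were Col4a1 (6.06), Lama1 (5.30), Col4a2 (5.16), Lamb1 (4.95), Lamc1 (3.36), Lamb2 (2.1), Nid1 (1.41), Itga3 (1.35) and Itga5 (1.09), and Lama5 (−1.33) and Nid2 (−1.19) were lower. Against ESC replicate 3 alone, the only ESC with the same placeholder for unmeasured genes, the count was 7 higher and 2 lower, with Lama1 at 5.10 and Col4a1 at 5.83, while Itga5 (0.33) and Itga3 (0.98) were no longer past 1 and Lama5 was at −2.04. Without ESC replicate 3 it was 1 lower. For these subsets of ESC the share of all genes is not given, and their counts are not read as results about the members. For 5 of 20 genes, Lama1, Lamb1, Lamc1, Col4a1 and Col4a2, the colonies lay above every other gene-span library by a log2 difference of 1 or more, beside 1.86% of all genes. Their ratios to the next highest library were 176, 7.62, 4.90, 7.87 and 4.95.

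Markers of extraembryonic endoderm were also highest in the colonies, which is 1 library. In the other libraries the order of the marker sum matched that of these 5 genes only in part. The sum was 0.248, 0.0931 and 0.0943 RPKM in ESC, where Col4a1, Col4a2 and Lamb1 were lower than in every other gene-span library. It was 2.34 and 6.32 in the GFP-negative cells, mostly from Foxa2, 4.1 in the clusters and 0.182 to 0.784 in MEF. Lama1, Col4a1, Col4a2 and Lamc1 were lower in the clusters than in every MEF, and Lamb1 was inside the MEF range. Gata4, Gata6, Foxa2 and Hnf4a summed to 34.1 RPKM in the colonies and to 0.0931 to 6.32 in the other gene-span libraries, with Gata4 at 6.82, Gata6 at 5.39, Foxa2 at 21.6 and Hnf4a at 0.331. Endothelial markers summed to 16.2 there, with Cdh5 at 5.42 and Egfl7 at 10.1 but Kdr at 0.0720 and Pecam1 at 0.119, while Kdr gave nearly all of the clusters' sum of 24.6. Fibroblast markers summed to 45.3 RPKM in the colonies, between 172 in the clusters and 10.5 to 24.1 in ESC. Their part in the result was not tested.

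The 3 exon-scale libraries compare CiPSC lines 6 and 11 with ESC replicate 4. Nid2 was 24.2 and 21.7 RPKM in the CiPSC lines and 25.8 in the ESC, and Lamc1 24.7 and 24.1 against 25.2. Lama1 was 3.04 and 2.87 against 4.08, and Lama5 8.29 and 6.87 against 3.82. The lines lay close to the ESC library for Nid2 and Lamc1, below it for Lama1 and above it for Lama5. None of the 20 genes was called, beside 0.16% of all genes (0.122% higher, 0.0376% lower). At an unadjusted limma p under 0.05 there were 507 of the 10647 genes tested. Of these, 2 were members of these families, Itgb4 (0.75 ± 0.21, adjusted p = 0.414) and Lama3 (0.30 ± 0.12, adjusted p = 0.933). Both genes reach 1 RPKM only in the 2 CiPSC libraries, so their higher level there follows from the filter and gives no separate support.

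Collagen IV and Itgb1 were lower in both lines than in the ESC library. Col4a1 was 3.06 and 2.94 RPKM in CiPSC and 5.95 in ESC replicate 4, a log2 difference of −0.80 ± 0.42. Col4a2 was 1.13 and 1.01 against 2.60 (−0.80 ± 0.37), and Itgb1 was 10.4 and 9.71 against 19.4 (−0.89 ± 0.58), all at a limma adjusted p of 1. Fibroblast markers summed to 2.03 and 1.21 RPKM in CiPSC and 10.6 in that ESC library, and their part in the result was not tested. With 1 ESC library, assumed to vary like the other groups, differences of these sizes were not called. Lama5 made up 66.4% and 61.6% of laminin alpha in the CiPSC lines and Lama1 24.4% and 25.7%, against 43.1% and 46.0% in ESC replicate 4.

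**Figure D5:**
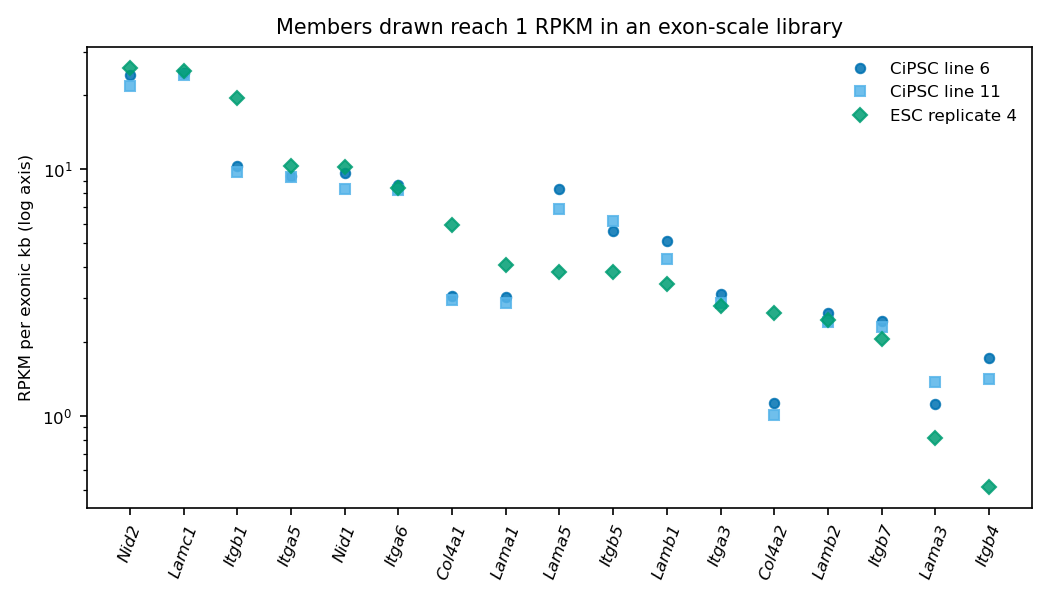
RPKM per exonic kilobase, on a log axis, of 17 genes at 1 or more in at least 1 of CiPSC line 6, CiPSC line 11 and ESC replicate 4. Points are libraries. Nid2, Lamc1, Itga5 and Itga6 nearly coincide, while Col4a1, Col4a2 and Itgb1 lie higher in the ESC library and Lama5 and Itgb4 lower.

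Lists of genes around the pathway are read beside the shares of all genes called, which were 7.95% higher and 7.97% lower in ESC against MEF, 3.53% and 4.09% in GFP-negative cells against MEF, and 14.3% and 8.35% in ESC against GFP-negative cells. Of 10 tested of 19 other basement membrane components, 0 rose and 3 fell in ESC against MEF, namely Pxdn, which crosslinks collagen IV (−1.70 ± 0.15), the collagen-binding Sparc (−4.45 ± 0.46) and Fbln2 (−3.64 ± 0.44; limma adjusted p = 0.000131 to 0.000717). In GFP-negative cells against MEF Pxdn alone of the 10 was called (−1.66 ± 0.16, limma adjusted p = 0.000594), and Agrn, agrin, did not pass (−1.15 ± 0.34, limma adjusted p = 0.0690). Of 8 other laminin and collagen receptors, Ddr2 and Ddr1, receptors for collagen, fell in ESC against MEF (−1.69 ± 0.18 and −1.52 ± 0.43, limma adjusted p = 0.000406 and 0.0325), and the proteoglycan Sdc1 rose in GFP-negative cells (2.34 ± 0.34, limma adjusted p = 0.00414). Sdc1 was 24.3 and 26.1 RPKM there and 2.50 to 6.48 in MEF. In ESC against GFP-negative cells Ddr2 (−1.97 ± 0.20) and Sdc1 (−3.22 ± 0.34) led 4 receptors that fell, while Dag1, a laminin receptor, rose by 1.18 ± 0.29 (limma adjusted p = 0.000306, 0.000319 and 0.0161). In that comparison Sparc and Fbln2 fell and Agrn rose (1.40 ± 0.34, limma adjusted p = 0.0147). Itgav, the 1 tested of 4 integrin chains whose symbol has no number, fell in ESC against MEF (−1.04 ± 0.25, limma adjusted p = 0.0182).

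Adaptors that link integrins to actin fell in part. Of 13 tested of 15, 0 rose and 5 fell in ESC against MEF, beside 7.97% of all genes lower: Zyx (−2.94 ± 0.27), Ilk (−2.61 ± 0.38), Parva (−1.33 ± 0.21), Vcl (−1.95 ± 0.38) and Tln1 (−1.67 ± 0.41; limma adjusted p = 0.000169 to 0.0199). In GFP-negative cells against MEF, Pxn rose (1.03 ± 0.26) and Ilk fell (−1.67 ± 0.42, limma adjusted p = 0.0409 and 0.0428). Of 7 tested of 8 other integrin ligands, 5 fell in ESC against MEF, beside the same 7.97%: Fbn1, Postn, Fn1, Tnc and Thbs1 (log2 changes −2.12 to −5.18). Fn1, the fibronectin gene, was 56.7, 60.1 and 68.6 RPKM in MEF, 55 and 71.3 in the GFP-negative cells, 62.8 in the clusters, 3.11 in the colonies and 12.6, 13.8 and 13.9 in ESC. The colonies thus held the least Fn1 of the gene-span libraries while they held the most laminin. In GFP-negative cells against MEF, Spp1 (osteopontin) rose by 4.65 ± 0.66 and Postn and Fbn1 fell (limma adjusted p = 0.00400, 0.000452 and 0.000551). In ESC against GFP-negative cells 2 adaptors, Zyx and Parva, and 5 ligands, Tnc, Fn1, Fbn1, Spp1 and Postn, fell.

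Enzymes and chaperones of collagen folding were high in the colonies. Of 8 such genes, 6 fell in ESC against MEF, beside 7.97% of all genes, led by the collagen chaperone Serpinh1 (−4.61 ± 0.48, limma adjusted p = 0.000334), and P4ha2 and Serpinh1 fell in GFP-negative cells. All 8 were past 1 on the higher side in the colonies against ESC, beside 14.9% of all genes, and 5 of 8 against the clusters, beside 27.3%. Serpinh1 was 478 RPKM in the colonies, 143 to 371 in MEF and 4.38 to 14.5 in ESC, and the prolyl hydroxylase P4ha2 was 34.4 in the colonies and at most 4.61 elsewhere among the gene-span libraries. Tinagl1, a basement membrane component, was 52.3 and Sparc 697 in the colonies, each above every other gene-span library.

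By the Pearson correlation of log2(RPKM + 1) with the mean of Col4a1 and Col4a2 over the 10 gene-span libraries, the genes most like collagen IV outside these families were P4hb (0.988), Qsox1 (0.986) and Lamp1 (0.970). Without the colonies the values were 0.983, 0.976 and 0.964 over 9 libraries. The libraries share groups and processing, so this is a description. P4hb, the disulfide isomerase subunit of prolyl hydroxylase, was 172.5 RPKM in the colonies, 62.6 to 86.6 in MEF and 25.1 to 30.7 in ESC.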

How the data were processed

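The deposited table gives 1 RPKM column per library, and the authors named the unit RPKM per the file headers. The submitters' processing notes name TopHat 1.3.0 and mm9. How reads were counted, with which annotation and lengths, and whether strand was used is not given in the sources used here. Of 15184 rows, 8 that share 1 identifier were left out. Multiplying RPKM by GRCm38 gene span gave whole steps for 80.3 to 81.2% of low values (tolerance 0.05 steps) in 10 libraries, from which depth was estimated. The other 3 fitted exonic length, and their depth is unknown. GRCm38 lengths (90.1% of genes) were used for that check and for values per exonic kilobase, and GRCm38 coordinates are not those of the authors' build.

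Libraries were grouped by their labels. Testing took genes reaching 1 RPKM in 2 or more libraries, on log2(RPKM + 1), which understates changes of low genes, with limma 3.58.1 in R 4.3.3: 13 libraries, 1 coefficient per group, a term for the length scale, a variance trend and Benjamini-Hochberg adjustment over all 10647 genes (6 residual degrees of freedom). Errors are SE. The fit was tested on simulated data. Alternatives covered the pseudocount, filter, scaling, trend, replicate block, library subsets and each replicate left out, and, chosen after seeing the data, values per exonic kilobase and ESC replicate 3 alone.

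The members, lists and tests were chosen with earlier results of these data known. The text names 14 chains in any case, every other member that was called or past 1, and of each further list the 2 genes with the smallest p. Other genes named were chosen after their values were seen. The lists also held markers of fibroblast, pluripotent, macrophage and blood, endothelial, platelet, extraembryonic endoderm, keratinocyte and muscle cells. 1 member is counted among the 34 and in the totals, and its own values are not reported here.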

Additional observations from a re-analysis of the deposited data

How the results depend on the processing

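None of the tested chains named in any case, nor of the members called or past 1 in the main fit of a comparison, reversed direction in a call. Other members were not checked for this. Counts of members called or past a log2 difference of 1 are given as higher and lower. With a pseudocount of 0.1, GFP-negative against MEF gave 4 higher and 2 lower and clusters against GFP-negative 7 lower. With median-ratio scaling, GFP-negative against MEF gave 3 higher and colonies against clusters 4 lower. With no filter, ESC against GFP-negative gave 0 higher. With the 10 gene-span libraries alone, ESC against GFP-negative gave 0 higher and GFP-negative against MEF 0 lower. With exact-zero libraries alone, both comparisons with MEF gave 0 higher. Per exonic kilobase, where 30 members were tested, lower counts were 17 for ESC against MEF, 9 for ESC against GFP-negative and 6 for GFP-negative against MEF. Beside these, 26.4%, 34% and 13.3% of all genes were called in either direction. Lower counts were 9 for clusters against GFP-negative, 5 for colonies against clusters and 4 for colonies against ESC. On that scale 4 were higher for GFP-negative against MEF and 4 for clusters against GFP-negative. For the clusters and colonies per exonic kilobase, and for the other settings of this paragraph, the share of all genes is not given. Those counts are thus not read as results about the members. Leaving out 1 replicate gave 0 to 2 higher and 8 to 10 lower for ESC against MEF, 1 to 2 higher and 0 to 1 lower for GFP-negative against MEF, 0 to 1 higher and 5 to 6 lower for ESC against GFP-negative, 1 to 2 higher and 3 to 4 lower for clusters against GFP-negative, and 8 to 9 higher and 1 to 2 lower for colonies against ESC. CiPSC against ESC replicate 4 gave 0 in every alternative. Apart from the larger number of genes tested per exonic kilobase and the fewer libraries in subsets, the cause of these changes was not tested.

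Replicate numbers gave no sign of pairing the samples: same-numbered deviations correlated at −0.04, −0.07 and 0.08 between the 3 pairs of groups. Each value rests on 1 difference between 2 libraries per group, taken across genes, so it cannot settle whether samples were paired. With the number as a replicate block, GFP-negative against MEF gave 0 lower (Itga5 −1.59, limma adjusted p = 0.0504) and ESC against GFP-negative 0 higher (Nid2 1.35, 0.0505). Depth limits Lama1, Lama3 and Itgb2 where they are listed at 0 or rest on a few reads, and the 3 exon-scale libraries have no known depth.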
